A study of Mus musculus with 4 samples.

Results

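The TNF superfamily was examined in lymph node B cells of mice that over-express miR-146a. Members were taken by gene symbol: every gene named Tnfsf or Tnfrsf with a number, together with Tnf, Lta, Ltb and Ltbr, that had a probe set annotated to it alone. The BAFF and APRIL receptors Tnfrsf13b, Tnfrsf13c and Tnfrsf17, the ligand Tnfsf13b and the receptor Tnfrsf4 were set apart. This gave 27 of the 17097 genes on the array: 10 ligands, 16 receptors and Tnfsf13os, an RNA named for the strand opposite Tnfsf13. Each gene was read from its brightest probe set. The arrays came from male Balb/C mice 6 to 8 weeks of age, an inbred strain, with 2 wild type (WT) and 2 miR-146a transgenic (TG) animals and 1 Affymetrix array of total RNA per animal. B cells had been purified by removing other cells with magnetic beads, without labelling the B cells themselves, and dead cells were depleted. The promoter and cell type that drive the transgene are not given in the sources used here.

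TNF superfamily ligands are trimeric proteins, mostly on the cell surface, that cluster receptors of the matching family on the same or neighbouring cells. Receptors with a death domain, such as TNFR1, can signal towards NF-kB or towards cell death, and most of the others recruit TRAF adaptors and drive NF-kB. In lymph nodes, lymphotoxin made by B cells maintains the stromal network through the lymphotoxin beta receptor, and several receptor pairs (4-1BB, OX40, GITR, HVEM) tune T cell responses. miR-146a is itself induced by NF-kB and is known to repress Traf6 and Irak1, adaptors that act above NF-kB. Its mature sequence, shown because it is the transgene's product, lies at chr11:43374435-43374456 on the minus strand of GRCm38.p6 in RefSeq, with the seed (bases 2 to 8) in capitals.
mmu-miR-146a-5p: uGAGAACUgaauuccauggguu

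Promoter sequence from RefSeq (GRCm38.p6) was available for 21 of the 27 members, in 24 windows, and the 250 bases before the annotated start were searched on both strands for letters found in NF-kB sites (GGNNTTTCC and GGNNATTCC) and for a TATA box (TATAAA). The NF-kB letters occurred in 4 windows, those of Tnf, Ltb, Tnfrsf9 and Tnfrsf25, and in 6.93% of all 32851 windows of the same length. TATAAA occurred for Tnf, Lta, Tnfsf11 and Tnfrsf23 and in 12.4% of all windows. No matches in the members' windows overlapped each other. The stretches printed here are those of the 2 members that were higher by the most in the TG arrays and whose window holds no annotated part of the gene, Tnfsf11 (chr14:78308044-78308293 on the minus strand) and Tnfrsf1a (chr6:125349473-125349722 on the plus strand), and of the chromosome neighbours Ltb (chr17:35194257-35194506 on the plus strand) and Tnf (chr17:35202008-35202257 on the minus strand), which carry NF-kB letters. Matches are in capitals, and each stretch runs 5′ to 3′ and ends at the base before the start.
Tnfsf11: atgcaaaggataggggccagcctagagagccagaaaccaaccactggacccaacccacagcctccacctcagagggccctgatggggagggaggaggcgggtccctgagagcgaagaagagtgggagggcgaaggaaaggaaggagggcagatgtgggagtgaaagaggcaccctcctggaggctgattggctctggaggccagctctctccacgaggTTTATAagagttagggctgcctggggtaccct
Tnfrsf1a: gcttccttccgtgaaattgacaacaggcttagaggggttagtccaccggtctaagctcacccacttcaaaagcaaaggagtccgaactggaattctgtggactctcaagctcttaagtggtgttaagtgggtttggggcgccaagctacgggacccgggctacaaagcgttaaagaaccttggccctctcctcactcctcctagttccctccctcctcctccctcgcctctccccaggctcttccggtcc
Ltb: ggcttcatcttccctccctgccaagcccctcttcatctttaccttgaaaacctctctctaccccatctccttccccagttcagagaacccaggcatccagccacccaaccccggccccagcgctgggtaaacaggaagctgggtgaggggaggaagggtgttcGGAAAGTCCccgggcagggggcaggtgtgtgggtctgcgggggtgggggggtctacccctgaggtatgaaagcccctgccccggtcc
Tnf: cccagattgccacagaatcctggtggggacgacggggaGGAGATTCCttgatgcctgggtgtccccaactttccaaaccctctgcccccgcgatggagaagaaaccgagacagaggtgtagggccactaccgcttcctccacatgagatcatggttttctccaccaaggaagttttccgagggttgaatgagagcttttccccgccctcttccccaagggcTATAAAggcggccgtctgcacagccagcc
Counted back from -1 at the last base, the Ltb match lay at -87 to -79 and reads GGACTTTCC on the opposite strand, and the Tnf match lay at -212 to -204 and reads GGAGATTCC. The TATA letters of Tnf lay at -29 to -24 and those of Tnfsf11, on the opposite strand, at -32 to -27. No match was found in the window of Tnfrsf1a. These are matches of letters and not measured binding sites.

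The arrays differed from each other over all probe sets. The WT arrays correlated at r = 0.9984 over probe sets and the TG arrays at r = 0.9893. TG mouse 1 had a lower median (4.48) than the other arrays (4.59 to 4.61), and its actin signal at the 3′ end exceeded that of the middle by 0.47, against 0.14 to 0.16 elsewhere. All 11 measured B cell markers were lower in both TG arrays (median difference -0.94), whereas 9 of 10 neutrophil and 10 of 13 T cell markers were higher in both (medians 1.45 and 0.29). Over all genes 31.4% were lower and 17.7% higher in both TG arrays than in both WT arrays. In bulk RNA, fewer cells of a type and less RNA per cell cannot be told apart. The animals are labelled male, and the Y-linked Eif2s3y gave signals of 7.80 to 8.34 on all arrays, while Xist, an RNA of cells with an inactive X chromosome, lay at 5.96 and 6.19 in the WT and at 9.13 and 9.56 in the TG arrays. What lies behind the Xist difference was not tested.

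No member passed the test between TG and WT. The difference lay under 0.25 on the log2 scale in either direction for 18 of 27 members, beside 11737 of all 17097 genes. Over all 45037 probe sets 21 passed limma at an adjusted p of 0.05 (0.0466%), 17 higher and 4 lower in the TG arrays, a split that was 189 higher and 425 lower after centring the arrays on their medians. At an unadjusted p under 0.05, 5 members were higher and 2 lower, where 13.7% of all probe sets lay under that level. In 12 members both TG arrays lay above both WT arrays (44.4% of the members, against 17.7% of all genes), and in 4 both lay below (14.8%, against 31.4% of all genes). The median difference of the members was 0.08, beside -0.05 over all genes. The 12 were Tnfsf11, Tnfsf14, Tnfsf13, Tnfsf9, Tnfsf4, Tnf, Tnfrsf1a, Tnfrsf25, Tnfrsf12a, Tnfrsf21, Tnfrsf23 and Tnfrsf11a, and the 4 were Tnfrsf14, Lta, Tnfrsf9 and Ltb. After quantile normalization, which forces the 4 arrays to one distribution, 870 probe sets passed (1.93%, 402 higher and 468 lower), and among the members Tnfrsf1a and Tnfsf11 were higher and Tnfrsf14 lower past the threshold. With TG mouse 1 left out 7 members passed limma, where 9.19% of all probe sets did. With TG mouse 2 left out 12 members passed (44.4%), where 42.4% of all probe sets did, so a member that passed in that fit is not set apart by it. With either WT mouse left out no member and no other probe set passed. At an unadjusted p under 0.05 there were 3 members without WT mouse 1 and 2 without WT mouse 2, beside 3.62% and 3.5% of all probe sets. In those fits the lone mouse of a group is assumed to vary like the remaining pair. Limma with a trended, robust prior called 0 members (5 at an unadjusted p under 0.05, beside 13% of all probe sets). For 2 arrays a group, 0.333 is the smallest two-sided p that exact permutation of a member's values allows.

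**Figure D1:**
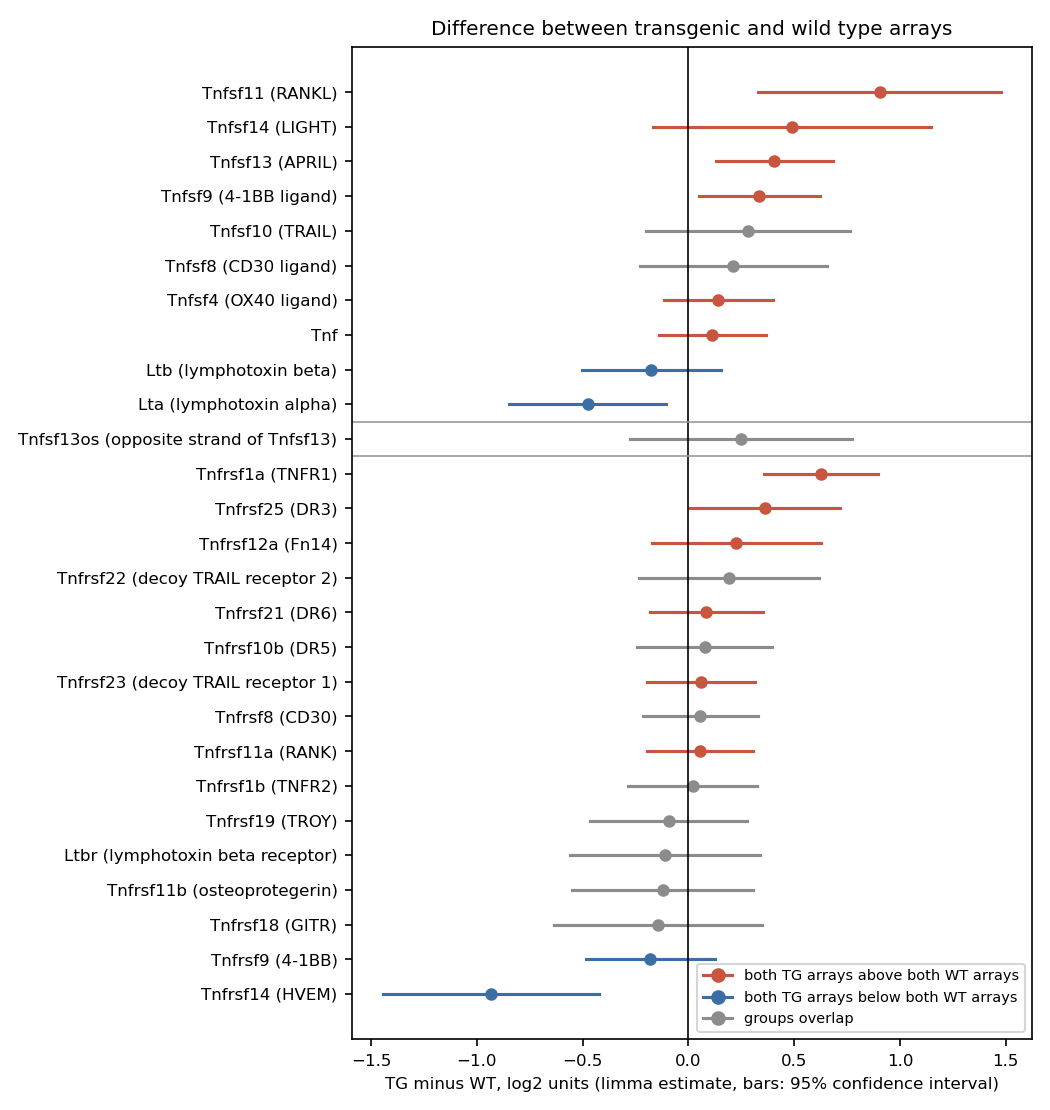
The difference between TG and WT arrays (TG minus WT, log2 units) is shown for each of the 27 members, as limma's estimate (point) with its 95% confidence interval (bar), coloured by whether the 2 TG arrays lie above, below or among the 2 WT arrays. The interval stays above 0 for Tnfsf11, Tnfsf13, Tnfsf9, Tnfrsf1a and Tnfrsf25 and below 0 for Lta and Tnfrsf14.

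Among the ligands, lymphotoxin alpha and TNF itself, whose genes are neighbours, had differences of opposite sign, and neither passed the test. Lta, which encodes the secreted lymphotoxin alpha subunit made by lymphocytes (probe set 1420353_PM_at), gave log2 signals of 7.76 and 7.89 in WT mice 1 and 2 and of 7.21 and 7.50 in TG mice 1 and 2. Both TG values lay below both WT values, a difference of -0.48 (SE 0.14, 1.39-fold lower, limma adjusted p = 0.291). It was -0.33 without TG mouse 1 (limma adjusted p = 0.0939) and -0.62 without TG mouse 2 (0.00640, a fit that 42.4% of probe sets passed), with adjusted p-values over all alternatives of 0.00640 to 0.99998. Tnf, the founding inflammatory cytokine of the family (1419607_PM_at), gave 5.76 and 5.79 in the WT and 5.86 and 5.91 in the TG arrays. The groups did not overlap but lay close, at a difference of 0.11 (95% interval -0.14 to 0.37, limma adjusted p = 0.637). Ltb, which anchors lymphotoxin at the membrane (1419135_PM_at), gave 11.62 and 11.64 in the WT and 11.33 and 11.58 in the TG arrays. Its TG values were both lower, TG mouse 1 by more, and the difference was -0.17 (95% interval -0.50 to 0.15). Without TG mouse 2 it was -0.30 (limma adjusted p = 0.0270) and without TG mouse 1 -0.049 (0.728).

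Of the other 7 ligands all had positive differences, and 4 had no overlap between groups beyond a difference of 0.25. Tnfsf11 encodes RANKL, the osteoclast and lymph node organiser cytokine that activated T cells also make (1419083_PM_at), and it showed the largest positive difference of any member. It gave 4.65 and 4.52 in the WT arrays and 5.19 and 5.78 in the TG arrays. Both TG mice were higher, mouse 2 by more, and the difference was 0.90 (SE 0.22, 1.87-fold, limma adjusted p = 0.231). It was 1.20 without TG mouse 1 and 0.61 without TG mouse 2, fits whose spread came from the WT pair alone. After quantile normalization it was 1.00 (limma adjusted p = 0.0459) and after median centring 0.96 (limma adjusted p = 0.0691). A dimmer Tnfsf11 probe set (1451944_PM_a_at), at 3.54 in the WT arrays, differed by 0.12, so the mean of both probe sets differed by 0.51.

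Tnfsf14 encodes LIGHT, a ligand of both HVEM and the lymphotoxin beta receptor (1450298_PM_at), and it gave 4.24 and 3.99 in the WT and 4.27 and 4.94 in the TG arrays. TG mouse 1 lay just above the WT arrays and TG mouse 2 well above, so the difference of 0.49 had an interval from -0.17 to 1.15. It was 0.82 without TG mouse 1 (limma adjusted p = 0.0276) and 0.16 without TG mouse 2 (0.354). Tnfsf13, APRIL, a survival factor for plasma cells made by myeloid cells (1418345_PM_at), gave 5.24 and 5.19 in the WT and 5.68 and 5.56 in the TG arrays. The TG mice were close to each other here, at a difference of 0.41 (SE 0.11, 1.33-fold, limma adjusted p = 0.249; 0.0589 without TG mouse 1 and 0.00854 without TG mouse 2). Tnfsf9, the 4-1BB ligand of antigen-presenting cells (1422924_PM_at), gave 5.06 and 4.95 in the WT and 5.40 and 5.28 in the TG arrays. Both TG values were higher by similar amounts, a difference of 0.34 (SE 0.11, limma adjusted p = 0.316; 0.123 without TG mouse 1 and 0.0190 without TG mouse 2). Tnfsf4, the OX40 ligand (1421744_PM_at), gave 5.53 and 5.49 in the WT and 5.69 and 5.62 in the TG arrays, a small difference of 0.14 without overlap (95% interval -0.12 to 0.40). For Tnfsf10, the death ligand TRAIL, and Tnfsf8, the CD30 ligand, the groups overlapped, with differences of 0.28 and 0.21 and with TG mouse 2 at 0.52 and 0.41 above the WT mean, against 0.045 and 0.013 in TG mouse 1. Tnfsf10 passed without TG mouse 1 (limma adjusted p = 0.0287) and not without TG mouse 2 (0.685), and its other 2 probe sets differed by 0.38 and 0.22. Tnfsf13os lay 0.52 above the WT mean in TG mouse 1 and -0.022 from it in TG mouse 2, so its sign turned without TG mouse 1 (limma adjusted p = 0.887) and it passed without TG mouse 2 (0.00593).

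Lists of myeloid and other cell type markers were read in the same arrays. The neutrophil list had a mean log2 signal of 4.99 and 5.04 in the WT and 6.31 and 6.59 in the TG arrays, and of its genes the granule protein gene Ngp passed limma (2.77 higher, adjusted p = 0.0219). The monocyte and macrophage list gave 5.51 and 5.54 in the WT and 5.87 and 5.99 in the TG arrays, with 5 of 8 genes higher and none lower without overlap. Of the remaining lists, NK cell genes were higher without overlap in 5 of 8 and lower in 0 (median 0.33). Mast cell and basophil genes were higher in 4 of 7 and lower in 1 (median 0.20), and 3 of these 7 had a mean signal above 4.10. Dendritic cell genes were higher in 4 of 8 and lower in 3 (median 0.03). Over all genes 17.7% were higher and 31.4% lower without overlap. The part of these cells in the ligands' values was not tested.

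**Figure D2:**
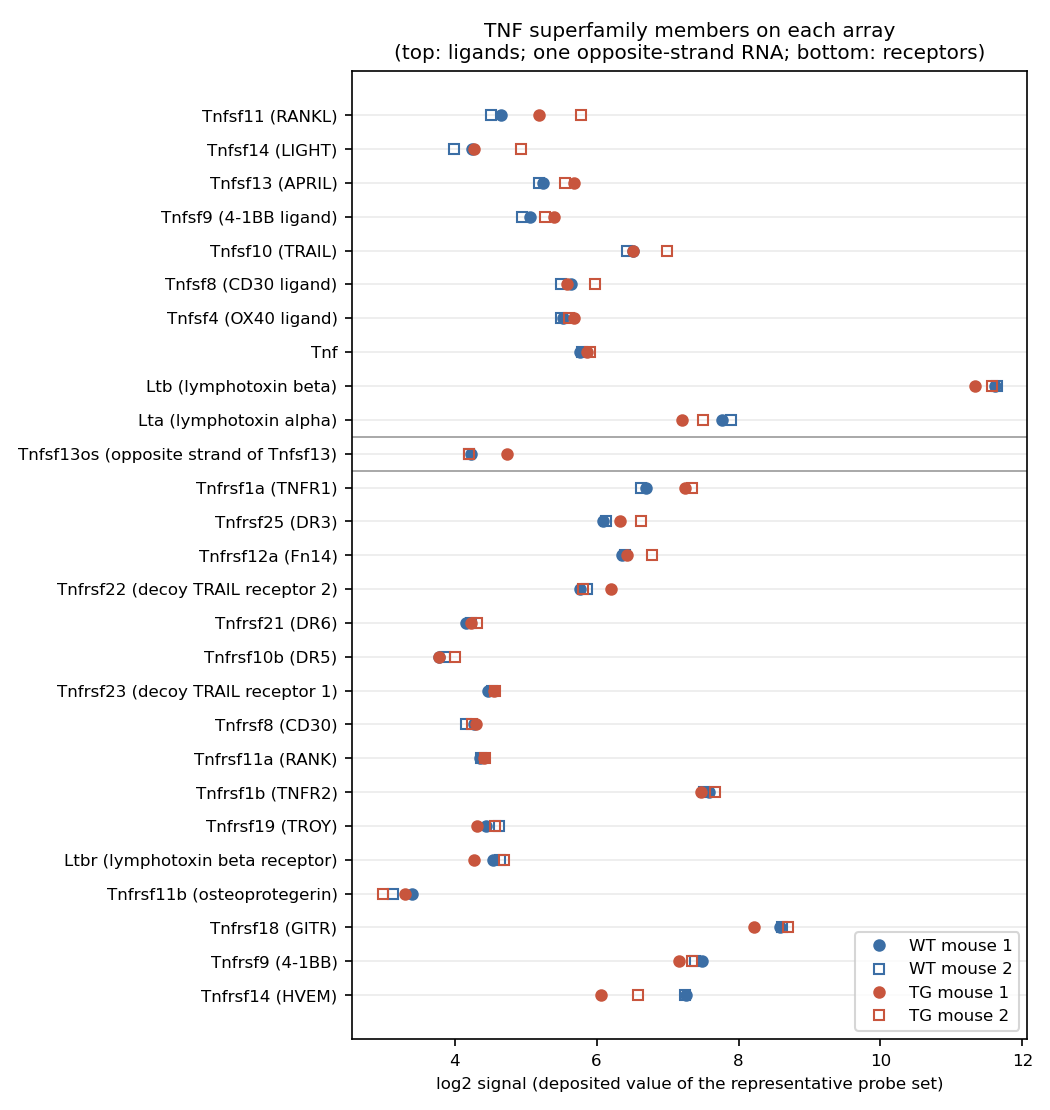
The log2 signal of each member's representative probe set is shown on the 4 arrays (blue, WT; red, TG; filled circle, mouse 1; open square, mouse 2). Levels of different genes come from different probes and are not set against each other; within a row, the TG points of Tnfrsf14 (6.06 and 6.58) lie left of the WT points (7.25 on both), and those of Tnfrsf1a (7.24 and 7.34) lie right of them (6.70 and 6.63).

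Among the receptors, TNFR1 was higher and HVEM lower, while 13 of 16 differed by under 0.25, beside 11737 of all 17097 genes. Tnfrsf1a encodes TNFR1, the death domain receptor of TNF and lymphotoxin alpha found on most cell types (1417291_PM_at). Its signal was 6.70 and 6.63 in the WT and 7.24 and 7.34 in the TG arrays. The TG mice agreed closely and lay well above the WT mice, a difference of 0.63 (SE 0.10, 1.55-fold, 95% interval 0.36 to 0.90), the smallest p of any member (limma adjusted p = 0.151). It passed after quantile normalization (difference 0.84, limma adjusted p = 0.0472) and not after median centring (0.68, limma adjusted p = 0.0501). The difference was 0.68 without TG mouse 1 and 0.58 without TG mouse 2, fits whose spread came from the WT pair alone. Tnfrsf1b, TNFR2, the receptor for TNF without a death domain (1418099_PM_at), gave 7.58 and 7.51 in the WT and 7.47 and 7.66 in the TG arrays. Its groups overlapped and the difference was 0.02 (95% interval -0.28 to 0.33), a sign that turned on the dimmer probe set (-0.07). The 2 TNF receptors were thus measured with intervals that do not meet, 0.36 to 0.90 against -0.28 to 0.33; their difference was not tested.

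Tnfrsf14 encodes HVEM, the receptor of LIGHT and lymphotoxin alpha, which also binds the inhibitory molecule BTLA and is expressed by resting B and T cells (1452425_PM_at). It gave 7.25 in both WT mice and 6.06 and 6.58 in TG mice 1 and 2. The TG values were both lower and lay further apart than the WT values, with a difference of -0.93 (SE 0.19, 1.91-fold lower, 95% interval -1.44 to -0.42, limma adjusted p = 0.20). It passed after quantile normalization (-0.71, limma adjusted p = 0.0426) and not after median centring (-0.88, limma adjusted p = 0.0644). The difference was -0.67 without TG mouse 1 and -1.19 without TG mouse 2, fits whose spread came from the WT pair alone. In the same arrays all 11 B cell markers were lower, by 0.34 to 1.41. Of 13 T cell markers 10 were higher and 1 lower without overlap, beside 17.7% and 31.4% of all genes. The part of B cell or T cell RNA in this difference was not tested.

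The receptors best known from T cells had differences of both signs, none passed the test, and the negative ones turned positive after quantile normalization. Tnfrsf25, DR3, a death domain receptor that co-stimulates T cells (1422231_PM_a_at), gave 6.10 and 6.13 in the WT and 6.33 and 6.62 in the TG arrays. Both TG values were higher, a difference of 0.36 (SE 0.13, limma adjusted p = 0.359). It was 0.51 without TG mouse 1 (limma adjusted p = 0.0242) and 0.22 without TG mouse 2 (0.0676). Tnfrsf9, the activation receptor 4-1BB (1460469_PM_at), gave 7.48 and 7.39 in the WT and 7.16 and 7.35 in the TG arrays, a difference of -0.18. Its sign turned after quantile normalization (0.012), and it was -0.087 without TG mouse 1 and -0.27 without TG mouse 2. The dimmer Tnfrsf9 probe sets differed by -0.16 with overlap and 0.15 without overlap. Tnfrsf18, GITR, a receptor of regulatory and activated T cells, had TG mice on either side of the WT mean, at -0.39 and 0.10 from it. The difference of -0.14 turned to 0.030 after quantile normalization, and the adjusted p in limma was 0.444 without TG mouse 1 and 0.0127 without TG mouse 2. Tnfrsf8, the activation receptor CD30, differed by 0.06 with overlap. In the same arrays 10 of 13 T cell markers were higher without overlap and Cd4 was lower (-0.79). Of 5 measured markers of regulatory T cells 3 were higher without overlap (median 0.06). Over all genes 17.7% were higher and 31.4% lower without overlap. The mean log2 signal of the T cell list was 9.72 and 9.79 in the WT and 9.95 and 10.11 in the TG arrays, so T cell RNA was present in both groups. The part of T cells in these values was not tested.

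Receptors of stromal, bone and epithelial cells and of TRAIL gave small differences. Ltbr, the lymphotoxin beta receptor of stromal and myeloid cells (1416435_PM_at), gave 4.54 and 4.64 in the WT and 4.27 and 4.70 in the TG arrays. Of 11 measured stromal and endothelial markers 1 was higher and 5 lower without overlap (median -0.09), beside 17.7% and 31.4% of all genes. The part of such cells was not tested. The groups of Ltbr overlapped, at -0.11 (95% interval -0.56 to 0.34), and it was -0.32 without TG mouse 2 (limma adjusted p = 0.0323) and 0.10 without TG mouse 1 (0.495). Tnfrsf12a, Fn14, the receptor of TWEAK (1418571_PM_at), gave 6.36 and 6.40 in the WT and 6.42 and 6.79 in the TG arrays, a difference of 0.23 that was 0.41 without TG mouse 1 (limma adjusted p = 0.0395) and 0.044 without TG mouse 2 (0.661). Its other probe set differed by 0.37. Tnfrsf11a, the RANKL receptor RANK, gave 4.36 and 4.37 in the WT and 4.41 and 4.42 in the TG arrays, so that groups without overlap differed by 0.05. Tnfrsf11b, osteoprotegerin, the soluble decoy of RANKL, lay near the non-specific control probes (2.83 to 2.95) at 3.26 and 3.14 in the group means, at a difference of -0.12, and its other probe set read below those controls. Tnfrsf21, the death receptor DR6 (4.15 and 4.22 in the WT, 4.23 and 4.32 in the TG arrays), and Tnfrsf23, a decoy receptor of TRAIL (4.46 and 4.53, then 4.55 and 4.56), had groups that did not overlap by narrow margins, at 0.08 and 0.06. Tnfrsf22, the other decoy, is a neighbouring and closely related gene, so probes may not separate them, and it differed by 0.19 with overlap; TG mouse 1 alone stood 0.39 above the WT mean (limma adjusted p = 0.0189 without TG mouse 2 and 0.990 without TG mouse 1). Tnfrsf10b, the TRAIL death receptor DR5, and Tnfrsf19, TROY, an orphan receptor of epithelial and neural tissue, differed by 0.08 and -0.09 with overlap.

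**Figure D3:**
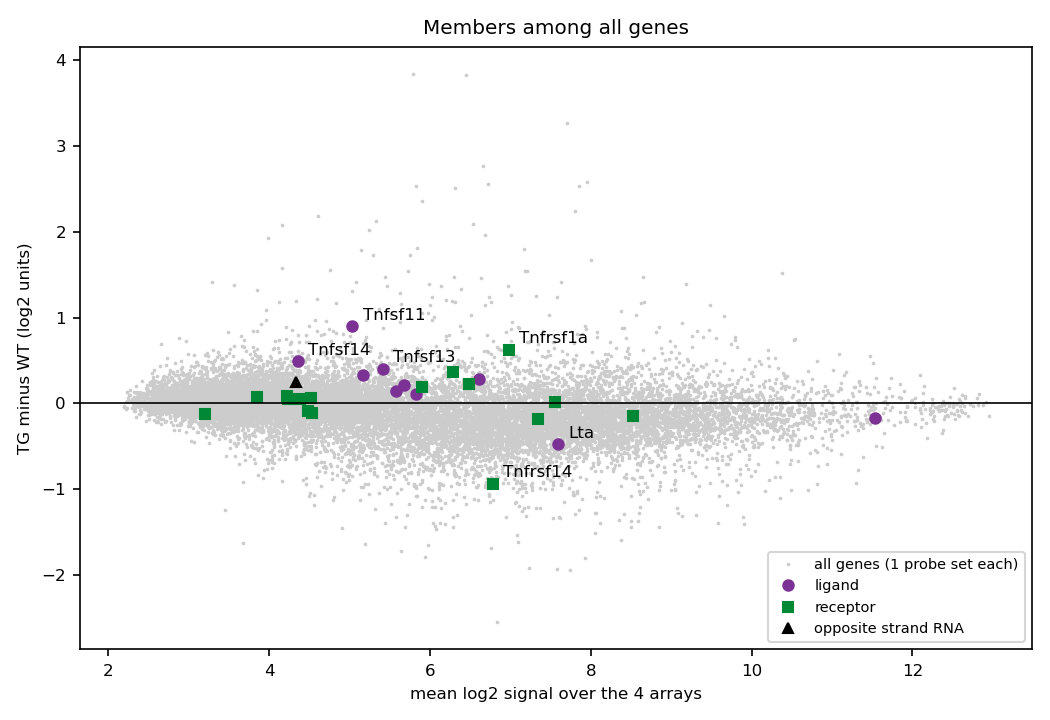
The difference between groups (TG minus WT, log2 units) is plotted against the mean log2 signal over the 4 arrays for the 27 members (coloured) and for all 17097 genes (grey), 1 probe set per gene. Tnfsf11 at 0.90 and Tnfrsf14 at -0.93 mark the ends of the members' range, inside the range of all genes (-2.54 to 3.83).

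Ligands and their receptors were set side by side to see whether both partners of an interaction differed. In 7 of 17 listed pairs, which include Tnfsf4 with Tnfrsf4, neither partner's groups overlapped. Both partners were higher in 3, both lower in 1 and opposite in 3. Of single genes 17.7% were higher and 31.4% lower without overlap, and the share of gene pairs was not computed. Lta, Tnfrsf1a and Tnfrsf14 each recur among these 7 pairs, so the pairs are not separate from each other. The list leaves out the pairs of APRIL (Tnfsf13) with receptors set apart, so its counts depend on that choice. APRIL was higher by 0.41 without overlap. Tnfrsf13b was lower by 1.11 without overlap, and Tnfrsf17 differed by -0.18 with overlap. RANKL was higher by 0.90 while its receptor RANK differed by 0.05. TNF and TNFR1 were both higher, by 0.11 and 0.63, but lymphotoxin alpha, which binds the same receptor, was lower by 0.48. HVEM was lower by 0.93 while its ligand LIGHT was higher by 0.49 and its ligand lymphotoxin alpha lower. The 4-1BB ligand was higher by 0.34 and 4-1BB lower by 0.18, a sign that flips after quantile normalization. The OX40 ligand and OX40 (Tnfrsf4) were both higher, by 0.14 and 0.37. Lymphotoxin beta and its receptor differed by -0.17 and -0.11. RNA of ligand and receptor may come from different cells of the preparation.

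**Figure D4:**
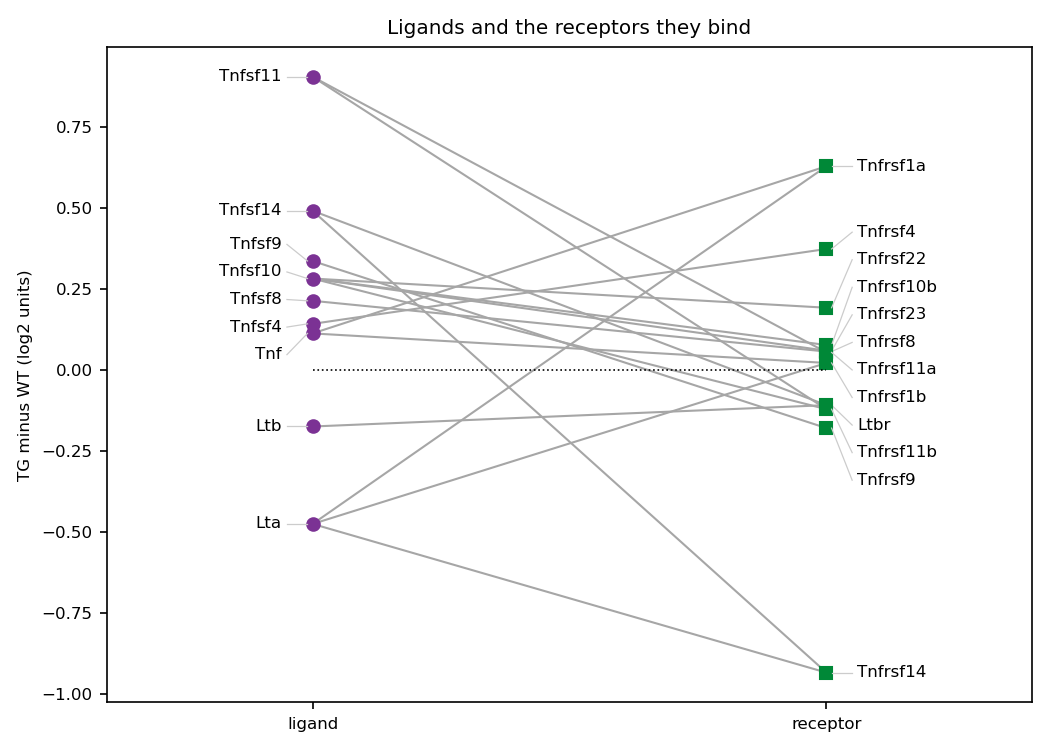
Each line joins a ligand (left) to a receptor it is known to bind (right), and the vertical axis gives the difference between TG and WT arrays in log2 units. The line from Tnfsf14 (0.49) to Tnfrsf14 (-0.93) falls the furthest, and the line from Lta (-0.48) to Tnfrsf1a (0.63) climbs the furthest.

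The TG mice differed from each other more than the WT mice did in 24 of 27 members, and TG mouse 2 lay above TG mouse 1 in 20. The arrays as a whole went the same way. Over all probe sets r was 0.9893 between the TG and 0.9984 between the WT arrays. The mean over all genes was 5.58 in TG mouse 1 and 5.77 in TG mouse 2. The shares of all genes with these 2 patterns were not counted. Against the WT mean both TG mice were higher in 15 members, both lower in 4 and on either side in 8. Tnfsf14, Tnfsf11, Tnfsf13os and Tnfrsf14 had the largest gaps between TG mice (0.66, 0.59, -0.54 and 0.52, mouse 2 minus mouse 1). Tnfrsf1a, Tnfsf13, Tnfsf9, Tnfsf4, Tnf, Tnfrsf11a, Tnfrsf23, Tnfrsf8 and Tnfrsf21 had TG mice within 0.13 of each other. TG mouse 1 also had the lower array median, and the part of that shift in this pattern was not tested.

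**Figure D5:**
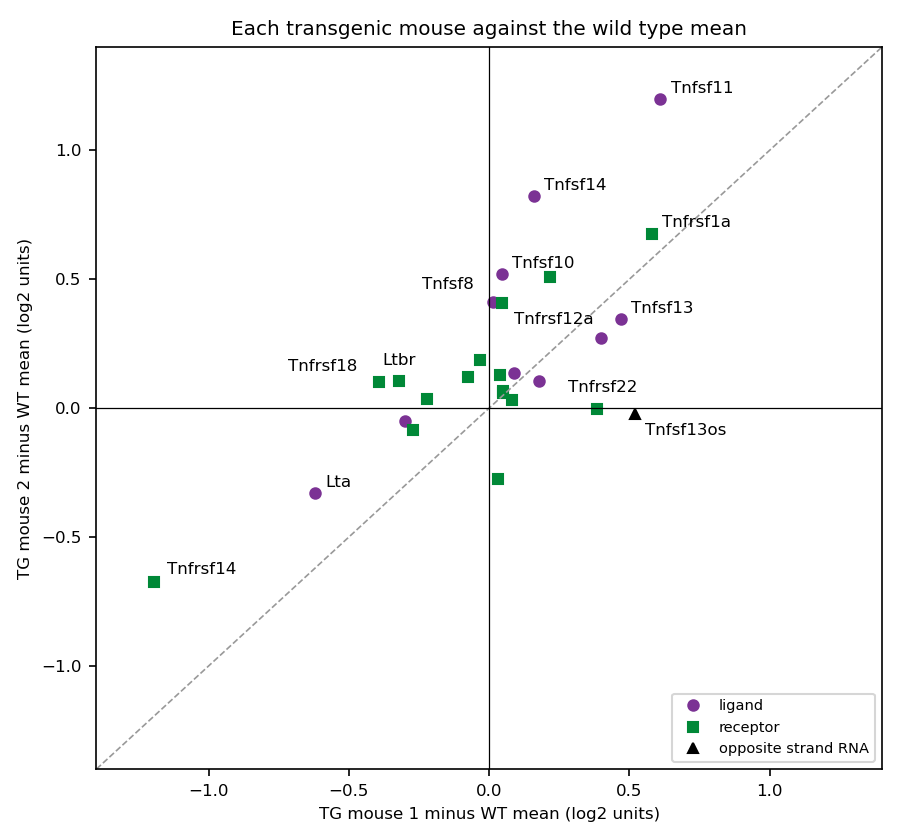
Each point is a member, placed by its log2 difference from the WT mean in TG mouse 1 (horizontal) and TG mouse 2 (vertical); the dashed line marks equal differences. Tnfrsf1a (0.58 and 0.68) lies close to the line, and Tnfsf13os (0.52 and -0.022) and Tnfsf14 (0.16 and 0.82) lie far from it on either side.

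Family members that carry other symbols were read for context. None of the 11 passed limma over all probe sets, and 1 higher and 1 lower had an unadjusted p under 0.05, beside 13.7% of all probe sets. Without overlap 5 were higher and 1 lower (17.7% and 31.4% of all genes), and the median was 0.18. Cd40, the B cell receptor for T cell help, was lower by 1.37 (from 9.27 to 7.90, limma adjusted p = 0.129) and passed after quantile normalization (limma adjusted p = 0.0198). Cd27, a receptor of T cells and memory B cells, was higher by 0.40, Fasl by 0.43 and Edar by 0.20. Of the genes set apart, Tnfrsf13b and Tnfrsf13c, the TACI and BAFF receptors of B cells, were lower by 1.11 and 0.95, and Tnfsf13b, BAFF itself, differed by -0.15.

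Genes that relay the receptors' signals were mostly lower. Of 30 measured genes 18 were lower and 3 higher without overlap (beside 31.4% and 17.7% of all genes). All 30 had a mean signal above 4.10, and of the 12024 such genes 37.9% were lower and 15.2% higher. None of the 30 passed limma over all probe sets. At an unadjusted limma p under 0.05 there were 9 lower and 1 higher, beside 1657 and 539 of those 12024 genes. The median difference of the 30 was -0.24 and moved to -0.067 after quantile normalization. It was -0.12 without TG mouse 1 and -0.46 without TG mouse 2. Nfkb2, the p100 subunit of the non-canonical pathway below the lymphotoxin beta receptor, was lower by 0.67, and its partner Relb by 0.64. Birc3, a ubiquitin ligase bound to TRAF2, was lower by 0.60, whereas Tnfaip3, the deubiquitinase A20 that dampens TNF signalling, was higher by 0.47 (limma adjusted p from 0.142 to 0.242 for these 4).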

How the data were processed

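The labels' protocols give TRIzol and column extraction of RNA from the isolated B cells of each mouse and a 3′ IVT labelling kit for Affymetrix arrays. The authors deposited 1 log2 signal per probe set and array (the scale was read from the values, 2.02 to 13.03). How these were background corrected, normalized and summarised is not stated in those sources. The number of arrays limits the precision. The 45037 probe sets left after 104 control probe sets were set aside were fitted with limma 3.58.1 in R 4.3.3 (lmFit, eBayes, TG against WT, two-sided, Benjamini-Hochberg over all of them, threshold 0.05). Symbols came from the platform annotation, and all 27 members matched RefSeq by Entrez ID. A gene is represented by its brightest probe set, by mean over all arrays. Members and lists were chosen with earlier results of these data known, so no test was run over the members alone. All members are named, with values per array for Tnf, Lta, Ltb, Ltbr, Tnfrsf1a, Tnfrsf1b and up to 14 further members without overlap by smallest p; up to 4 genes per other list are named. Tested on simulated data for TG against WT (45037 probe sets, 50 altered at each size), limma called 12% of those altered by 1 log2 unit and 74% at 2, with 96% at both 3 and 4. Mice are numbered 1 and 2 in each group without a stated link. As alternatives the arrays were quantile normalized or centred on their medians, dim probe sets were dropped (below 4.10, percentile 40), the prior was made trended and robust, the mouse number was a block, a gene's probe sets were averaged, and each array was left out. The p-values measure only the spread between these mice. Figures were drawn with matplotlib 3.10.9.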

Additional observations from a re-analysis of the deposited data

How the results depend on the processing

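The number of probe sets past the threshold was 870 after quantile normalization, 614 after median centring (189 higher and 425 lower) and 51 with the filter on dim probe sets, against 21 as deposited, and from 0 to 19110 with 1 array left out. The number of members past it was 3 after quantile normalization, 0 to 12 with 1 array left out and 0 under the other alternatives. With 1 array left out, which makes overlap rarer for every gene, members without overlap numbered 14 to 18 higher, against 12, and 5 to 8 lower, against 4. The shares of all genes were then 23.9% to 43% higher and 37.7% to 61.8% lower. Signs turned after quantile normalization for Tnfrsf18 (0.030) and Tnfrsf9 (0.012), and with the mean of all probe sets for Tnfrsf11b (0.027), Tnfrsf19 (0.026), Tnfrsf1b (-0.025) and Tnfrsf21 (-0.049). With 1 array left out the ranges that crossed 0 were -0.32 to 0.10 for Ltbr, -0.034 to 0.19 for Tnfrsf10b, -0.27 to 0.032 for Tnfrsf11b, -0.39 to 0.10 for Tnfrsf18, -0.22 to 0.033 for Tnfrsf19, -0.076 to 0.12 for Tnfrsf1b, -0.0023 to 0.39 for Tnfrsf22, -0.0037 to 0.12 for Tnfrsf8 and -0.022 to 0.52 for Tnfsf13os. The causes were not tested. In the other 16 members every alternative kept the sign. The deviations of same-numbered mice from their group means correlated at 0.014 over probe sets. Since the shift of the TG mouse 1 array enters that value, it cannot decide whether the samples were paired. The fit with the replicate block, with 15 probe sets and 0 members past the threshold, changed no member's call. Tnfrsf11b and Tnfrsf10b lay below the filter and were not fitted with it.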

Other observations

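The differences of neighbouring family genes did not all have the same sign. In RefSeq, Ltb, Tnf and Lta follow each other on chromosome 17 with no protein-coding gene between them, and they differed by -0.17, 0.11 and -0.48. Elsewhere on that chromosome Tnfsf9, Cd70 and Tnfsf14 are adjacent and differed by 0.34, 0.27 and 0.49, all positive, with overlap between groups for Cd70. On chromosome 6, Ltbr and Tnfrsf1a lie with 1 protein-coding gene between them and differed by -0.11 and 0.63, and on chromosome 4 the adjacent Tnfrsf4 and Tnfrsf18 differed by 0.37 and -0.14, the latter a sign that turned after quantile normalization. No member was tested against its neighbour.

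Of the 13 members with more than 1 probe set, 7 had another probe set whose difference had the opposite sign, and in none of them did both differences exceed 0.2. The other probe set of Tnfrsf11b read below the non-specific controls, so its sign is not informative.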
